A study of Homo sapiens with 18 samples.

Results

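The genes described here are the solute carriers (SLC and SLCO), the ABC transporters and the ATPase pumps of UMRC2 cells, an established clear cell renal carcinoma line. Members were chosen by gene symbol alone: SLC, SLCO, the ABCA, ABCB, ABCC, ABCD and ABCG families, and the P-type and V-type ATPase pumps. This gave 38 of the 1242 genes in the authors' deposited table, namely 28 SLC genes, 2 SLCO genes, 4 ABC genes and 4 ATP genes. The symbols of SLC9A3R1 and SLC2A4RG start like those of transporters, but the first encodes a scaffold protein and the second a transcription factor, so 36 members encode transporters or their subunits.

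Cells expressed either shControl, a short hairpin RNA used as the control, or a hairpin that targets FTO, named shFTO#2 or shFTO#5. FTO is an enzyme that takes the methyl group off N6-methyladenosine (m6A), a modified base of messenger RNA. All were grown in DMEM with fetal bovine serum, and total RNA was sequenced from 2 libraries per group. The labels do not say whether the hairpin lines were clones or pools. The study compared the transcriptomes of FTO knockdown and control cells. The library totals recovered from the FPKM values (reads relative to gene length and sequencing depth) ranged from 14548533 to 18184675 reads, and a member had between 178 and 60776 reads in the shControl and shFTO#5 libraries. FTO itself measured 1.99 and 2.37 FPKM in shControl, 0.555 and 0.526 FPKM with shFTO#5, and 0.882 and 0.720 FPKM with shFTO#2, so both knockdowns lay below both controls. Of 11 markers of clear cell renal carcinoma, tubule and epithelium, 6 were in the table, and of 6 markers of immune, endothelial and stromal cells 0 were. The table held only genes that the authors called as changed with shFTO#5, so these counts do not show which cells were present.

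Solute carriers move nutrients, ions and organic compounds across membranes along or against gradients, while ABC transporters and ATPase pumps spend ATP to do so. In the proximal tubule, the presumed origin of clear cell renal carcinoma, sodium is pumped out at the basolateral side by the sodium/potassium ATPase. The resulting sodium gradient drives the uptake of amino acids and phosphate and the export of protons at the apical side. Organic anions and cations are secreted by dedicated carriers. Many carriers of amino acids work as pairs of a heavy chain, which brings the pair to the membrane, and a light chain, which moves the substrate.

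With shFTO#5, 24 of the 38 members fell and 14 rose against shControl. Lower members prevailed among the carriers of amino acids (6 of 7), of organic ions and drugs (5 of 6) and of lipids (3 of 3), while 62.9% of all listed genes were higher. Carriers of inorganic ions split into 5 higher and 4 lower members (3 and 4 with a filter of at least 5 FPKM), and mitochondrial carriers into 3 and 1 (2 and 2 after quantile normalization). The organic anion transporter SLCO4A1 had the largest rise, to 187% of its control level, and its relative SLCO4C1 the largest fall, to 56.6%. No other member reached a change of that size, and 0 of the 38 changed 2-fold between FPKM means, against 11 (0.886%) of the 1242 listed genes.

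These counts rest on genes that the authors had already called. The table held the genes with an adjusted p under 0.05 in the shFTO#5 comparison, 13.0% of the 9551 genes tested. Of those tested, 8.18% were listed as higher and 4.83% as lower. Being called was therefore a condition of being a member. The shControl and shFTO#5 libraries did not overlap in any of the 1242 listed genes, all 38 members included. Among the members 36.8% were higher, with a median log2 change of -0.24, while among all listed genes 62.9% were higher, with a median of 0.15. This difference was not tested. Transporters that were not called are not in the table and were not analysed here. The members nearest to the threshold in the authors' deposited table were the bicarbonate carrier SLC4A7 (adjusted p = 0.0493), the phosphate carrier SLC20A1 (0.0417) and SLC45A3 (0.0417).

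**Figure D1:**
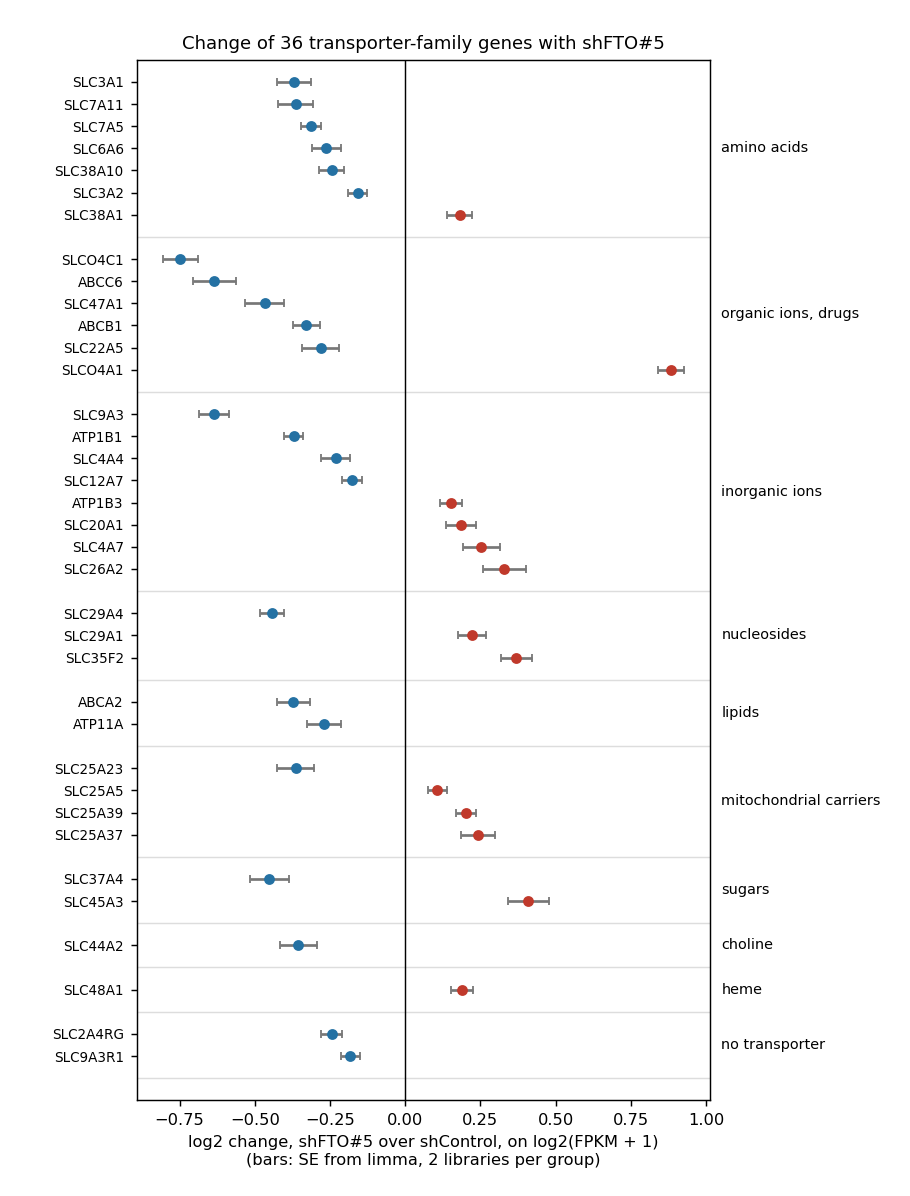
Log2 change of 36 of the 38 members with shFTO#5 over shControl on log2(FPKM + 1), grouped by substrate class; points are estimates and bars the SE from limma, with 2 libraries per group. Points left of zero (blue) are lower members and points right of zero (red) higher ones; SLCO4A1 (0.88) and SLCO4C1 (-0.75) lie at the ends.

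Log2 changes below are differences of log2(FPKM + 1) with their SE from limma, a scale that understates the change of genes at a few FPKM. Limma called all 38 members, 14 higher and 24 lower, as it did 99.7% of the listed genes (62.6% higher, 37.1% lower). With libraries centred on their median it called 35 members, 11 higher and 24 lower, against 80.1% of the listed genes (43.0% higher, 37.1% lower). After quantile normalization it called 36 members, against 80.9% (44.3% higher, 36.6% lower). Centring shifted every log2 change by -0.09. The median is that of called genes, 62.9% of them higher, so this centring shrinks rises and enlarges falls. Quantile normalization also ran over these listed genes only. The authors' log2 changes lay a median of 0.03 above the log2 ratios of FPKM means. The exact two-sided permutation p of 2 libraries against 2 cannot go below 0.333. In bulk RNA of this kind, fewer cells expressing a gene and less RNA of it per cell cannot be told apart.

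The 7 carriers of amino acids and related solutes had a median of 47.2 FPKM in shControl. SLC7A5, the light chain that exchanges large neutral amino acids such as leucine, was the most abundant member of all, at 737 and 793 FPKM in shControl and 618 and 612 FPKM with shFTO#5. This was a log2 change of -0.31 ± 0.03. Its heavy chain SLC3A2, also known as CD98, measured 381 and 404 FPKM in shControl and 347 and 356 FPKM with shFTO#5, a smaller fall of 0.16 on the log2 scale (SE 0.03). SLC7A11 is the other light chain of SLC3A2 in the table and imports cystine in exchange for glutamate. It went from 11.2 FPKM in both shControl libraries to 8.70 and 8.20 FPKM (-0.36 ± 0.06). Within each library, the SLC7A5 level was 1.93 and 1.96 times that of SLC3A2 in shControl and 1.78 and 1.72 times with shFTO#5. The SLC7A11 level was only 0.0293 and 0.0276 times that of SLC3A2 in shControl, and 0.0251 and 0.0230 times with shFTO#5. Such ratios of FPKM within a library do not change when a library is scaled by a constant factor. Quantile normalization is not such a scaling, and after it the log2 changes were -0.40 for SLC7A5 and -0.31 for SLC3A2.

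The heavy chain SLC3A1 belongs to a pair that carries cystine and dibasic amino acids back from the tubule fluid, and is mutated in cystinuria. It measured 26.1 and 23.7 FPKM in shControl and 19.8 and 18.3 FPKM with shFTO#5 (-0.37 ± 0.06). Its exons overlap those of PREPL on the opposite strand. The taurine transporter SLC6A6 (-0.26 ± 0.05) and SLC38A10, a member of the sodium-coupled neutral amino acid transporter family (-0.24 ± 0.04), fell as well. SLC38A1, which takes up glutamine with sodium, was the exception in this class. It rose from 57.5 and 53.7 FPKM to 63.5 and 62.8 FPKM (0.18 ± 0.04). After quantile normalization its change was 0.07 and did not pass (adjusted p = 0.221, limma).

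The promoters of 30 of the 38 members were in the RefSeq table. Those of SLC3A2, SLC38A1 and SLC7A5 are shown because SLC3A2 (lower) and SLC38A1 (higher, but not past the test after quantile normalization) hold the same letters close to the start, and SLC7A5 is the partner of SLC3A2. The 250 bases before the RefSeq gene start are given 5′ to 3′ on the gene's strand. Capitals mark an AP-1 site in the first pair and an E-box in the third. They lie at chr11:62881449-62881698 (plus strand), chr12:46266517-46266766 (minus strand) and chr16:87869508-87869757 (minus strand) of GRCh38.p14. The RefSeq starts of SLC3A2 and SLC38A1 lie inside the longer GENCODE genes, so that other starts exist.
SLC3A2 promoter: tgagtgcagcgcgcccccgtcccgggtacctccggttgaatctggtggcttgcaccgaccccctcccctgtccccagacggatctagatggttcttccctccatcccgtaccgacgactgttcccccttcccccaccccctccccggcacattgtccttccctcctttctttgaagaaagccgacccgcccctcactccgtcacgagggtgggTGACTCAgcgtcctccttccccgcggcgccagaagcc
SLC38A1 promoter: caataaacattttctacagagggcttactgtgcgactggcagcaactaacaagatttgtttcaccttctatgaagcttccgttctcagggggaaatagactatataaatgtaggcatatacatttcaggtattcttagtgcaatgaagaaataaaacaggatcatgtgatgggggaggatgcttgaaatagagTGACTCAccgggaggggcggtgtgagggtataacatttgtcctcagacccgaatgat
SLC7A5 promoter: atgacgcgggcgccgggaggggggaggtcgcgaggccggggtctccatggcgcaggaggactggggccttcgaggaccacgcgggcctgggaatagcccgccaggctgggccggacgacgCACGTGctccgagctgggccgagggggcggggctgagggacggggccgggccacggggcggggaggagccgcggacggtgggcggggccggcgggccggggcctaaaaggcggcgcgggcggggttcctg
The AP-1 letters TGANTCA, searched on both strands, began 37 bases before the start of SLC3A2 and 57 bases before that of SLC38A1. They occurred in 2 of the 30 member promoters and in 6.60% of 27305 promoters of the same length. The E-box letters CACGTG occurred in 5 of the 30 (3 higher and 2 lower members) and in 6.49% of all promoters. The letters TGACNNNGC of the antioxidant response element occurred in 6 of the 30 (3 higher and 3 lower) and in 11.0% of all promoters. In SLC3A2 the marked AP-1 stretch, together with the gc after it, matches these letters too. The letters TGATGNAA, the core of the element bound by ATF4 and its C/EBP partners, occurred in 0 of the 30 and in 3.19% of all promoters. A match of letters is a description and not a shown binding site.

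Among carriers of organic anions, organic cations and drugs, SLCO4A1 and SLCO4C1 moved in opposite directions. Both belong to the organic anion transporting polypeptides, which take up compounds such as thyroid hormones and steroid conjugates, and SLCO4C1 is the member known from the basolateral side of the kidney tubule. SLCO4A1 (chromosome 20, 62642445 to 62685785, plus strand, hg38) measured 38.5 and 40.3 FPKM in shControl and 71.3 and 75.9 FPKM with shFTO#5. The groups are far apart, with a log2 change of 0.88 ± 0.04, and in the authors' deposited table the change was 0.89 (adjusted p = 1.19e-45). Its exons overlap those of SLCO4A1-AS1 on the opposite strand. SLCO4C1 (chromosome 5, 102233986 to 102296549, minus strand) measured 14.2 and 13.3 FPKM in shControl and 7.87 and 7.72 FPKM with shFTO#5 (-0.75 ± 0.06). Within a library, SLCO4A1 stood at 2.71 and 3.02 times the level of SLCO4C1 in shControl and at 9.05 and 9.83 times with shFTO#5. By absolute log2 change the pair ranked 12 and 26 among the 1242 listed genes.

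The other carriers of this class fell. ABCC6, an ABC transporter that drives ATP release from cells and is mutated in pseudoxanthoma elasticum, measured 10.5 and 8.86 FPKM in shControl and 6.26 and 5.49 FPKM with shFTO#5 (-0.63 ± 0.07). It has 2 annotated pseudogenes, ABCC6P1 and ABCC6P2, and how the counting treated shared reads is not stated. SLC47A1, the proton-coupled exporter of organic cations at the apical side of the tubule, measured 7.09 and 7.56 FPKM in shControl and 5.28 and 4.77 FPKM with shFTO#5 (-0.47 ± 0.06), and it too has 2 annotated pseudogenes. ABCB1, the multidrug exporter P-glycoprotein, was the most abundant carrier of the class in shControl, at 42.6 and 42.3 FPKM, and measured 34.5 and 32.8 FPKM with shFTO#5 (-0.33 ± 0.04). SLC22A5, the carnitine transporter, measured 7.04 and 6.92 FPKM in shControl and 5.76 and 5.38 FPKM with shFTO#5 (-0.28 ± 0.06). In each of these genes both knockdown libraries lay below both controls, but the groups did not overlap in any of the 1242 listed genes.

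Markers of the tubule and of epithelium moved in both directions in the same libraries. With shFTO#5 the endocytic receptor LRP2 of the proximal tubule stood at 59.7% of control and the renal lineage factor PAX2 at 65.3%. The keratin KRT18 stood at 158%, the carbonic anhydrase CA9, a marker of clear cell renal carcinoma, at 134%, the renal lineage factor PAX8 at 114% and the keratin KRT8 at 113%. The summed level of these 6 markers, most of it KRT8, was 611 and 582 FPKM in shControl and 697 and 705 FPKM with shFTO#5. Their part in the changes of the tubule transporters SLCO4C1, SLC47A1, SLC9A3, SLC3A1 and SLC4A4 was not tested.

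**Figure D2:**
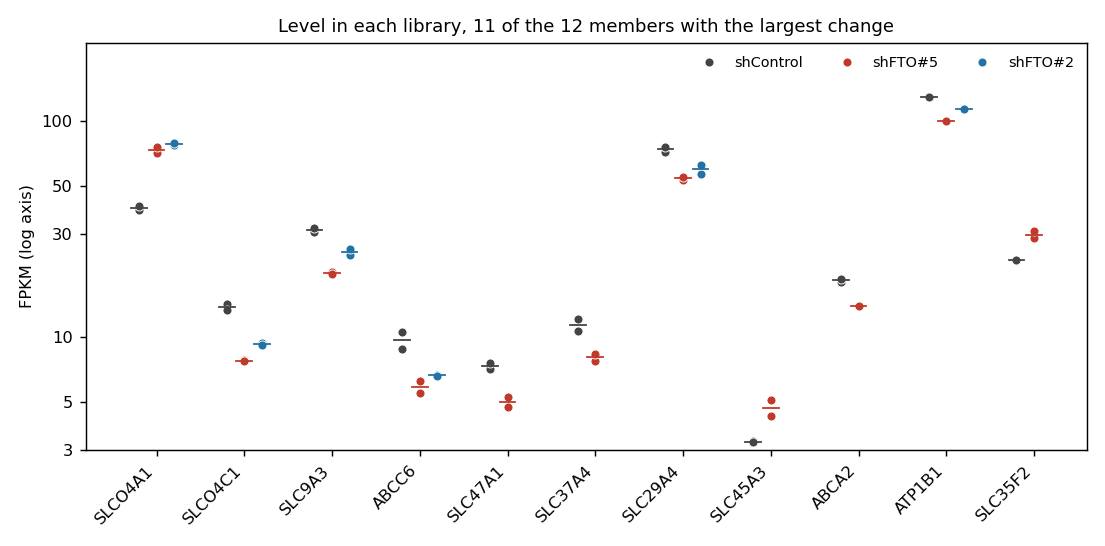
FPKM (log axis) in each library of 11 of the 12 members with the largest absolute log2 change, in order of that change; points are libraries and short lines group means. SLCO4A1, SLC45A3 and SLC35F2 are higher with shFTO#5 than in shControl and the others lower; shFTO#2 points appear only for members whose values could be assigned.

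Carriers and pumps of inorganic ions split into 5 higher and 4 lower members. The apical sodium/proton exchanger SLC9A3, which reabsorbs sodium and secretes protons in the proximal tubule, had the largest change of the class. It measured 30.5 and 32.0 FPKM in shControl and 20.0 and 19.5 FPKM with shFTO#5, a log2 change of -0.64 ± 0.05. In the authors' deposited table its change was -0.56 (adjusted p = 8.92e-10). SLC9A3 (chromosome 5, 470458 to 524332, minus strand) shares exon bases with EXOC3 and SLC9A3-AS1 on the opposite strand and with PP7080 on its own, and has 3 annotated pseudogenes. Its scaffold SLC9A3R1, which holds the exchanger at the apical membrane, was lower too, with 234 and 247 FPKM in shControl and 211 and 212 FPKM with shFTO#5 (-0.18 ± 0.03). So was SLC4A4 (-0.23 ± 0.05), the sodium bicarbonate cotransporter through which bicarbonate leaves the proximal tubule cell. SLC12A7, a potassium chloride cotransporter and the most abundant of the class, fell from 141 and 143 FPKM to 128 and 123 FPKM (-0.18 ± 0.03).

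The beta subunits of the sodium/potassium ATPase, which bring the pump to the membrane, moved apart. ATP1B1 measured 129 and 129.5 FPKM in shControl and 99.7 and 100.0 FPKM with shFTO#5 (-0.37 ± 0.03). The other beta subunit ATP1B3 went from 68.7 and 67.2 to 75.1 and 76.1 FPKM (0.15 ± 0.04). The level of ATP1B1 relative to ATP1B3 was 1.88 and 1.93 in the shControl libraries and 1.33 and 1.31 with shFTO#5. ATP1B1 shares exon bases with NME7 on the opposite strand.

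The higher ion carriers included low-abundance genes. SLC26A2, a sulfate transporter needed for sulfated proteoglycans, rose from 2.89 ± 0.461 FPKM (SD, n = 2) to 3.87 ± 0.177 FPKM (SD, n = 2), a log2 change of 0.33 ± 0.07. SLC4A7, a sodium bicarbonate importer, rose from 3.74 and 3.43 to 4.47 and 4.46 FPKM (0.25 ± 0.06). For the basolateral SLC4A4 the level was 10.5 and 10.7 times that of SLC4A7 in shControl and 7.49 and 6.93 times with shFTO#5. SLC20A1, a sodium phosphate importer, went from 22.0 and 21.6 to 25.0 and 24.8 FPKM (0.19 ± 0.05). The changes of ATP1B3 and SLC20A1 did not pass limma's test once each library was centred on the median of all listed genes (adjusted p = 0.116 and 0.0793). As 62.9% of those called genes were higher, that centring shifts every change by -0.09 and so shrinks rises only.

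**Figure D3:**
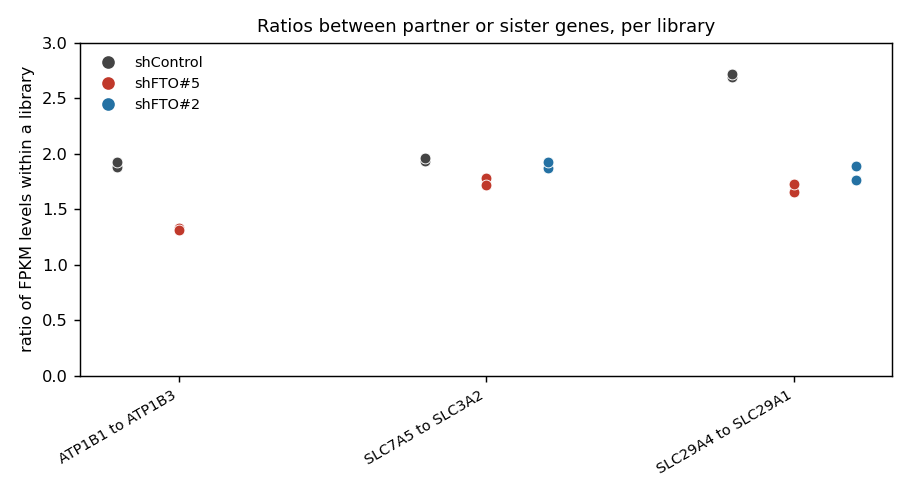
Ratio of FPKM levels of partner or sister genes within each library; each point is a library, dark for shControl, red for shFTO#5 and blue for shFTO#2 where values could be assigned. The ATP1B1 to ATP1B3, SLC7A5 to SLC3A2 and SLC29A4 to SLC29A1 ratios are lower in both shFTO#5 libraries than in both controls.

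The equilibrative nucleoside transporters also moved apart. SLC29A4, which carries monoamines and adenosine, measured 72.1 and 76.0 FPKM in shControl and 53.1 and 55.2 FPKM with shFTO#5 (-0.44 ± 0.04). It shares exon bases with TNRC18 on the opposite strand and has 2 annotated pseudogenes. SLC29A1, the general uptake route of nucleosides, rose from 26.8 and 28.0 to 32.1 and 32.0 FPKM (0.22 ± 0.05). The ratio of SLC29A4 to SLC29A1 was 2.69 and 2.72 in shControl and 1.65 and 1.72 with shFTO#5. SLC35F2, whose family holds the nucleotide sugar transporters, rose from 22.8 FPKM in both controls to 28.7 and 30.9 FPKM (0.37 ± 0.05).

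All 3 lipid transporters in the table fell. ABCA2, an endosomal and lysosomal lipid transporter, measured 18.0 and 18.6 FPKM in shControl and 14.0 and 13.9 FPKM with shFTO#5 (-0.37 ± 0.05). The phospholipid flippase ATP11A changed by -0.27 ± 0.06.

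Of the mitochondrial carriers, 3 of 4 were higher, and 2 of 4 after quantile normalization. SLC25A39, which brings glutathione into the matrix, rose from 143 and 149.6 FPKM to 167 and 169 FPKM (0.20 ± 0.03). SLC25A37, the iron importer mitoferrin, rose by 0.24 ± 0.06. SLC25A23, a calcium-regulated exchanger of ATP-magnesium for phosphate, went the other way, from 11.6 and 12.6 to 8.77 and 9.59 FPKM (-0.36 ± 0.06). The adenine nucleotide carrier SLC25A5 was the most abundant of the class, at 337 and 329 FPKM in shControl and 365 and 353 FPKM with shFTO#5. Its log2 change of 0.11 ± 0.03 was the smallest of all members, became -0.0068 after quantile normalization, and did not pass once libraries were centred (0.02, adjusted p = 0.574). It has 9 annotated pseudogenes.

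The remaining members carried sugars, choline or heme. SLC37A4, which brings glucose 6-phosphate into the endoplasmic reticulum and is mutated in a glycogen storage disease, measured 10.7 and 12.1 FPKM in shControl and 7.79 and 8.36 FPKM with shFTO#5 (-0.45 ± 0.06). It shares exon bases with TRAPPC4 on the opposite strand. SLC45A3, a member of a sugar transporter family known as a prostate marker, rose from 3.29 and 3.28 to 5.10 and 4.31 FPKM (0.41 ± 0.07), from 178 to 248 reads per library. The choline transporter-like SLC44A2 changed by -0.35 ± 0.06. SLC48A1, a heme transporter of endosomes and lysosomes, rose from 78.6 and 80.1 to 87.7 and 93.4 FPKM (0.19 ± 0.04). Its exons overlap RAPGEF3 on the opposite strand, which was itself listed with a log2 change of 0.27 ± 0.04, and the part of shared reads was not tested. SLC2A4RG, a transcription factor that acts on the gene of the insulin-responsive glucose transporter, changed by -0.24 ± 0.04.

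Lower and higher members did not fall into separate ranges of abundance. Lower members had a median of 28.1 FPKM in shControl, from 6.98 to 765, and higher members a median of 33.4, from 2.89 to 333. Their median gene lengths were 4418.5 and 3336 bases, against 3863 and 3445 bases for all lower and higher listed genes. Exon bases shared with a gene on the opposite strand occurred in 18 of the 38 members, and annotated pseudogenes in 12. The strand setting of the counting is not stated in the labels, so reads of such pairs cannot be told apart.

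For the second hairpin, shFTO#2, values could be assigned to 17 of the 38 members through whole reads and gene order. The comparison shares its control libraries with that of shFTO#5, and the assigned genes were called with both hairpins, so their directions are given as values only. Of the 17, 5 were higher than shControl and 12 lower (median log2 change -0.30), against 353 and 208 of the 561 assigned genes (median 0.17). By the authors' deposited table, 7.63% of 10038 genes tested were called with shFTO#2, 4.17% as higher and 3.46% as lower, and limma called 100% of the assigned genes (62.9% higher, 37.1% lower). Centring each library on its median shifted the shFTO#2 changes by -0.15 and left 5 members higher. SLCO4A1 measured 77.0 and 79.5 FPKM with shFTO#2, 198% of control, and SLCO4C1 9.44 and 9.17 FPKM, 67.6% of control. SLC7A11 measured 7.75 and 7.67 FPKM (-0.48 ± 0.05), SLC7A5 636 and 682 FPKM (-0.21 ± 0.04) and SLC3A2 340.3 and 355 FPKM (-0.17 ± 0.03). ABCC6 stood at 68.7%, ABCB1 at 79.4% and SLC22A5 at 78.4% of control. Higher with shFTO#2 were SLC26A2 (149%), SLC25A39 (119%), SLC29A1 (119%) and SLC48A1 (115%). The ratio of SLC29A4 to SLC29A1 was 1.76 and 1.89 with shFTO#2, below both control ratios. That of SLC7A5 to SLC3A2 was 1.87 and 1.92 with shFTO#2. This lay between the control ratios of 1.93 and 1.96 and those with shFTO#5 (1.78 and 1.72).

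**Figure D4:**
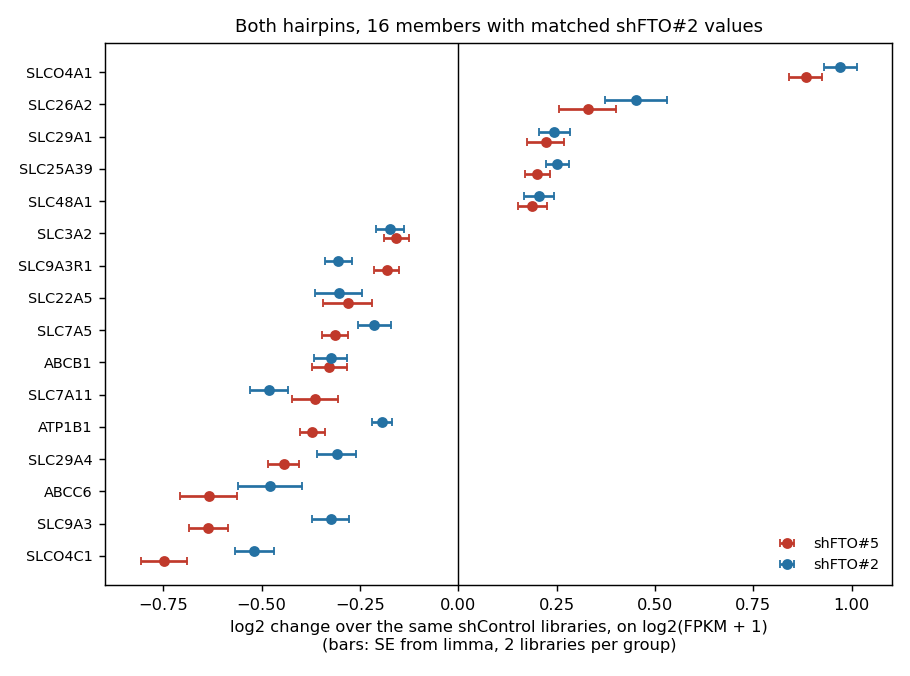
Log2 change over the shared shControl libraries with shFTO#5 (red) and shFTO#2 (blue) on log2(FPKM + 1), for 16 of the 17 members with assigned shFTO#2 values; bars are the SE from limma, 2 libraries per group. The points of a member are farthest apart for SLC9A3, with -0.64 for shFTO#5 and -0.32 for shFTO#2.

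The hairpins were compared directly in the same fit, which uses the controls only for the spread. The difference passed limma's adjusted test in 3 of the 17 members, against 77 (13.7%) of the 561 assigned genes. In all 3 the level was lower with shFTO#5, as in 6.06% of the assigned genes, while 7.66% were higher. SLC9A3 measured 23.9 and 25.6 FPKM with shFTO#2, against 20.0 and 19.5 with shFTO#5 (log2 difference -0.31 ± 0.05, adjusted p = 0.0074, limma). ATP1B1 measured 113 FPKM in both shFTO#2 libraries, against 99.7 and 100.0 with shFTO#5 (-0.18 ± 0.03, adjusted p = 0.00562, limma). SLCO4C1 differed by -0.23 ± 0.05 (adjusted p = 0.0264, limma), but did not pass after quantile normalization (adjusted p = 0.0593, limma), which left 2 of the 17 members past the threshold. With libraries centred on their median 4 of the 17 passed, these 3 genes among them. Leaving out either shFTO#5 library left 0 of the 3 past the threshold (adjusted p from 0.0787 to 0.16), and with the replicate number as a block 5 of the 17 passed. For these other fits the share of all assigned genes that passed is not given here, so their counts cannot be set against a background. The scaffold SLC9A3R1 was lower with shFTO#2, at 189 and 199 FPKM, than with shFTO#5, a difference of 0.12 ± 0.04 that did not pass (adjusted p = 0.0561, limma). For SLCO4A1 the difference was -0.09 with a 95% interval from -0.18 to 0.01 and for ABCB1 -0.0038 with an interval from -0.10 to 0.09.

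Genes of related function outside the symbol rule were taken from lists set by name. All 6 of the listed genes among 64 transporters and related proteins named outside these families were higher (median log2 change 0.21), against 62.9% of all listed genes. After centring 4 of the 6 passed limma's test, against 80.1% of all listed genes (43.0% as higher). They included the transferrin receptor TFRC (0.15 ± 0.03), the endosomal iron reductase STEAP3 (0.23 ± 0.06), the lysosomal cholesterol exporter NPC1 (0.25 ± 0.05) and the sphingosine 1-phosphate exporter SPNS2 (0.13 ± 0.04). The other two, ABCF1 and ABCF2, are ABC proteins that transport nothing. Ion channels split into 4 higher and 4 lower genes, with the potassium channel KCNK3 at 0.49 ± 0.06 and the calcium-activated channel TRPM4 at -0.49 ± 0.06. Among 5 listed partners and regulators of transporters, 3 were higher and 2 lower. TXNIP, an arrestin-like protein that lowers glucose uptake, changed by 0.45 ± 0.05. BSG, the membrane partner of monocarboxylate transporters, changed by -0.21 ± 0.03. The 3 listed subunits of the mitochondrial ATP synthase had log2 changes of 0.06 ± 0.03 (ATP5B), 0.12 ± 0.04 (ATP5F1) and 0.17 ± 0.05 (ATP5E). After centring 0 of the 3 passed limma's test, and ATP5B had -0.02 after centring and -0.06 after quantile normalization.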

How the data were processed

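RNA-seq was run on 6 UMRC2 libraries, 2 per group, grouped by their sample titles. The other 12 samples, m6A inputs and immunoprecipitates, were not used here. Trim Galore 0.4.2, STAR, RSEM and hg38 appear, with no role, in the submitters' processing notes. For the annotation release, the strand setting and the differential test, nothing is stated in the labels or headers.

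The authors deposited FPKM per library beside a gene length, per the file headers. The table's log2 fold changes and its p-values, raw and adjusted, were computed by the authors, per the file headers. Their sign was control over knockdown, so it was reversed here. The largest adjusted p was 0.0499. Reads and library totals were recovered from whole steps of FPKM times length (tolerance 1e-05). How many genes the authors tested (shFTO#5 9551, shFTO#2 10038) was recovered from the authors' p-values and adjusted p-values. The shFTO#2 columns followed another gene order. Each value was assigned to a listed gene by whole reads in both libraries, the authors' fold change and gene order. This placed 561 of 766 values, 540 of them with 1 candidate gene. The same steps on the shFTO#5 values with names withheld put 1242 of 1242 on their own gene. All of those values belonged to listed genes, however, while 205 of the shFTO#2 values were left without one. The check therefore cannot show how often a value of an unlisted gene would be placed wrongly.

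Limma 3.58.1 in R 4.3.3 was fitted with an intensity trend to log2(FPKM + 1) of genes at 1 FPKM or more in at least 2 libraries. The shFTO#5 comparison used 1242 genes and 4 libraries. The comparisons with shFTO#2 used the 561 assigned genes and 6 libraries. The Benjamini-Hochberg adjustment ran over all genes of a fit. The fit was tested on simulated data. Because all listed genes had been called by the authors, limma against shControl serves for sizes and errors, not for new calls. Other pseudocounts, filters, scalings, a fit without trend, a replicate block and leaving out each library were tried. Annotation came from GENCODE v29, which is on the same build, and all 38 genes matched by ID. Promoter sequences came from RefSeq on GRCh38.p14. Full values were given for the 12 members with the largest change and the most abundant member of each class. Results of 2 members are not reported here one by one and are left out of the figures, but counts and medians include them. The members, classes and lists were chosen with earlier results of these data known. Nothing in the labels says that replicates came from separate cultures, so errors measure the spread between libraries, which may be technical.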

Additional observations from a re-analysis of the deposited data

Results flagged for a closer look

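SLC9A3, the apical sodium/proton exchanger, ATP1B1, a beta subunit of the sodium/potassium ATPase, and SLCO4C1, which carries organic anions in the kidney, differed between the hairpins by limma's test of the difference itself. The log2 differences of shFTO#5 over shFTO#2 were -0.31 for SLC9A3, -0.18 for ATP1B1 and -0.23 for SLCO4C1. Each was lower with both hairpins than in both control libraries, and lower still with shFTO#5. The assigned genes had been called with both hairpins against these same controls, so lying below them is given as values only. With shFTO#5 the libraries did not overlap those of shControl in any of the 1242 listed genes. FTO stood at 24.8% of control with shFTO#5 and 36.7% with shFTO#2, and the part of this in the differences was not tested. Leaving out either shFTO#5 library left 0 of these 3 differences past the threshold.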

How the results depend on the processing

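Directions with shFTO#5 were the same under every alternative tried for 37 of the 38 members. The exception was SLC25A5, which had -0.0068 after quantile normalization, so that 13 members were higher there. The median log2 change of the members moved from -0.24 to -0.33 with centred libraries and to -0.30 after quantile normalization, and ranged from -0.27 to -0.21 when each library was left out. With at least 5 FPKM in 2 libraries, 35 members were left, with 3 higher carriers of inorganic ions and 0 higher sugar carriers. Past limma's threshold were 38 members as reported, 35 with centring and 36 after quantile normalization. The shares of all listed genes that passed in these settings were 99.7%, 80.1% and 80.9%. The differences between hairpins passed in 3 members as reported, in 4 with centring and in 2 after quantile normalization. Same-numbered libraries of shControl and shFTO#5 deviated from their group means with a correlation of 0.09, so the numbers were not taken to pair samples. With the replicate block, 5 members passed between the hairpins and 38 against shControl. The share of all genes that passed is not given here for this block, nor for the other alternatives of the hairpin comparison. The depth of 178 reads for the least covered member limits the precision of the low-abundance genes. Because the table holds called genes only, the spread was estimated on genes chosen for a difference.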
